A study of Drosophila melanogaster with 3 samples.

Results

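Cuticular protein genes encode the structural proteins that bind chitin and build the exoskeleton of insects. The genes described here were the protein-coding genes of the Ensembl annotation BDGP6.54 whose symbol starts with Cpr and a digit, with Twdl or with Cpap. This gave 95 of 13945 protein-coding genes on the 6 chromosome arms, made up of 70 Cpr genes, 25 Twdl genes and 0 Cpap genes. Members whose gene bodies lay at most 20 kb apart were joined, which gave 15 clusters that held 68 members, and 27 members stood alone. The largest gaps that were joined were 7.27 kb (Cpr49Ab to Cpr49Ac) and 10.5 kb (Cpr49Ad to Cpr49Ae), and the smallest that stayed apart were 32.1 kb (TwdlT to Cpr97Ea) and 51.5 kb (TwdlD to TwdlQ). By arm, 35 members lay on 3L, 24 on 3R, 22 on 2R, 8 on X, 6 on 2L and 0 on 4.

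The Cpr proteins carry the Rebers and Riddiford chitin-binding domain and are the largest family of cuticular proteins in insects. The Twdl (Tweedle) proteins form a separate family, first known from mutants with a changed body shape. Genes of both families are made by the epidermis and other cuticle-forming tissues late in embryogenesis and around each moult, and many stand side by side in the genome. The proteins with the other, peritrophin type of chitin-binding domain are called Cpap in other insects, and in Drosophila they are named Gasp and obst (obstructor), which is why no gene matched that name. TwdlU is annotated as a pseudogene (3R, 4243606 to 4245511) and was therefore not a member.

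Chromatin of whole Drosophila melanogaster embryos aged 0 to 24 h was immunoprecipitated with an antibody against GFP. The embryos carried a CG11695-eGFP transgene, which encodes the zinc finger protein CG11695 fused to a green fluorescent protein, and there were 3 biological replicates in 1 group. What drives the transgene is not given in the sources used here. No input, mock or untagged embryos were analysed here, so recovery that does not depend on the tagged protein cannot be told apart from binding. The embryos mix all cell types and all ages of embryogenesis, so a site held in few cells and a site held weakly in many cannot be told apart.

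The values were peak lists on assembly dm6. A summit is the base at which the authors placed the top of a peak, and a gene was counted as holding one when a summit lay within 500 bp of any of its transcription start sites (TSSs). The lists were made with the irreproducible discovery rate (IDR) procedure, which keeps peaks whose rank repeats between 2 peak sets. The conservative list held 4770 peaks. Most records compared for it were identical to records of replicates 1 and 3, and 0 to records of replicate 2. Replicate 2 thus took no part in its IDR comparison. The 2 other pair lists compared replicates 1 and 2 (called here the list without replicate 3) and replicates 2 and 3 (the list without replicate 1). The own lists of single replicates held 3404, 2774 and 2716 peaks for replicates 1, 2 and 3. The signal of a peak is the authors' own value on a scale that was not stated, and the depth of the libraries is unknown. It is given only to place a peak within its list, and the median signal of the conservative list was 120. CG11695 itself had a peak 188 bp from a TSS (X, summit 11576695, signal 133, rank 2076 of 4770), which was also in the own list of 1 replicate.

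No cuticular protein gene had a summit within 500 bp of a TSS in the conservative list. The count was 0 of 95 members, against 2257 of all 13945 protein-coding genes (16.2%). Among the members, 0 of 70 Cpr genes and 0 of 25 Twdl genes had one, and so did 0 of 68 members in clusters and 0 of 27 single members. The TSS windows of the members together covered 101 kb and held 0 summits, while those of all protein-coding genes covered 15333 kb and held 2014 summits, or 131 per Mb. With 1 group of samples there is no contrast between conditions to test, and the counts are given beside those of all genes as a description.

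The members' share was also low in the own list of each replicate. In replicate 1, 1 member (1.05%) had a summit at a TSS, against 12.5% of all protein-coding genes. In replicate 2 it was 0 members, against 10.2%, and in replicate 3 it was 0 members, against 10.7%. The mean share was 0.351% ± 0.608 of members and 11.1% ± 1.21 of all genes (SD, n = 3 replicates each), so the members' highest replicate lay below the lowest replicate of all genes. The single member was Cpr65Ea (3L, 7086003 to 7086608), with a summit 288 bp from its TSS, a signal of 41.4 and rank 2872 in the list of replicate 1.

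**Figure D1:**
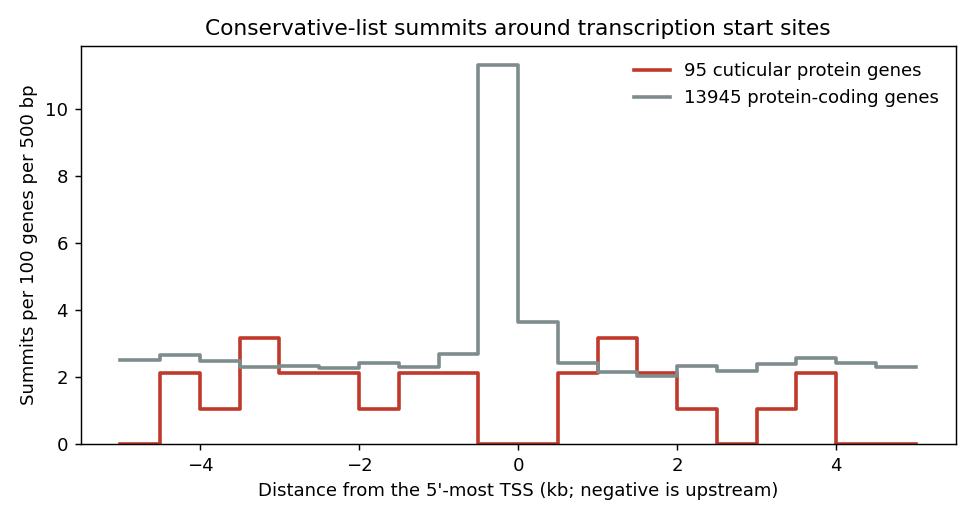
Summits of the conservative list per 100 genes in 500-bp steps around the 5'-most TSS, for the 95 cuticular protein genes and for all 13945 protein-coding genes. All genes reach 11.3 summits per 100 genes in the step just upstream of the TSS, where the members have 0.

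The other lists of the whole series added single members near the limit of the window. Cpr67Fb (3L, 10894173 to 10894693) had a summit 404 bp from its TSS in the list without replicate 3, where 15.3% of all genes had one, and in the pooled list, where 19.3% did. That record had a signal of 21.0 and lay 201 bp from a stronger record of signal 95.4. Cpr65Av (3L, 6139223 to 6139974) had a summit 449 bp from its TSS, with a signal of 65.0, in the list without replicate 1, where 14.0% of all genes had one. Each of these lists had 1 member of 95 (1.05%). In a wider window of 1000 bp the conservative list held 4 members (4.21%), against 19.6% of all genes. They were Cpr67Fb at 605 bp, Cpr73D at 714 bp, Cpr65Ay at 815 bp and Cpr65Ea at 907 bp. At that distance Cpr60D was added by the list without replicate 3 (658 bp, signal 55.1) and Cpr64Aa by the pooled list (707 bp, signal 58.4).

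From 500 to 2000 bp the members' shares lay closer to those of all genes, while farther out they differed again. In the range beyond 500 bp and up to 1000 bp the nearest summit was found for 4.21% of members and 3.41% of all genes, and beyond that and up to 2000 bp for 5.26% of members and 5.27% of all genes. Of the members, 36.8% were more than 20 kb from any summit, against 26.3% of all genes. All genes include the 16.2% with a summit within 500 bp, which cannot fall in the farther ranges, while 0 members had one. The shares and medians of all genes are thus not those of genes without a summit at a TSS. The median distance to the nearest summit of the conservative list was 15402 bp for members and 7873 bp for all genes. It was 14939 bp for Cpr genes and 19931 bp for Twdl genes. In the own lists the medians were 18103, 21150 and 21269 bp for members in replicates 1, 2 and 3, against 11230, 13793 and 14094 bp for all genes. The farthest member was Cpr78E (3L, 21666452 to 21666980), 61829 bp from a summit.

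The ranked counterpart of the conservative list gave most members a record at a TSS, while no own ranked list did. The ranked lists also hold the weaker records that did not pass, and those make up most of them. In the ranked counterpart of the conservative list, 61 of 95 members (64.2%) had a record within 500 bp of a TSS, against 74.8% of all genes. The median signal of the strongest such record was 22.5 for members and 41.3 for all genes with one. All genes here include those with a summit that passed. Among the 11688 genes with no passing summit at a TSS, 69.9% had a record, with a median signal of 34.3. In the own ranked lists the share of members was 48.4%, 49.5% and 47.4% in replicates 1, 2 and 3, against 70.0%, 65.4% and 67.5% of all genes. Their median signals were 11.2, 9.45 and 9.38 for members and 18.5, 16.4 and 16.9 for all genes. Leaving out genes with a passing summit in the same replicate, the shares were 47.9%, 49.5% and 47.4% of members, against 65.7%, 61.5% and 63.6% of genes in replicates 1, 2 and 3. Records in all 3 own ranked lists were found for 18.9% of members and 49.1% of all genes, and in none for 28.4% of members and 15.7% of all genes.

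**Figure D2:**
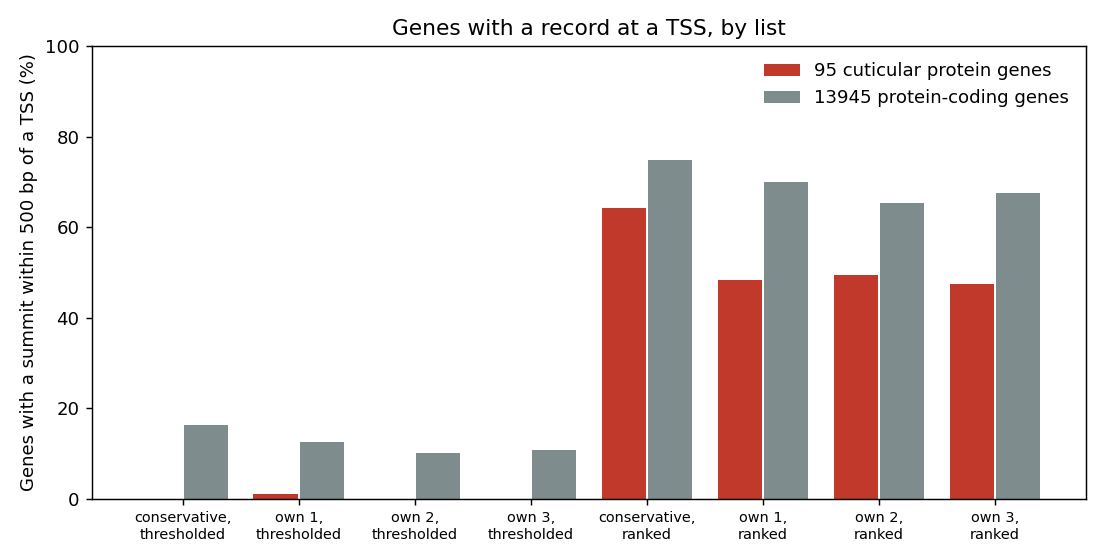
Percent of genes that held a summit at a TSS (500 bp or nearer) in 4 thresholded and 4 ranked lists, the conservative list and the own lists with their ranked counterparts (own 1 to 3 are the lists of single replicates), for the 95 cuticular protein genes (left bar of each pair) and all 13945 protein-coding genes (right bar). In the thresholded lists shown the members' highest share is 1.05%, and in the ranked lists shown their shares lie between 47.4% and 64.2%.

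The 5 members with the highest ranked signal were Cpr65Av, Cpr67Fa1, Cpr65Ea, Cpr73D and Cpr57A. Cpr65Av had a signal of 65.0 in the ranked counterpart of the conservative list. In single replicates it had 12.2 in replicate 1, 30.8 in replicate 2 and no record in replicate 3. Cpr67Fa1 (3L, 10889990 to 10890700) had 58.5, with 35.3, 8.56 and 17.3 in replicates 1, 2 and 3. Cpr65Ea had 57.7, with 41.4 in replicate 1, no record in replicate 2 and 15.2 in replicate 3. Cpr73D had 47.9, with 33.2, 15 and 15.3 in replicates 1, 2 and 3. Cpr57A (2R, 20548368 to 20550117) had 46.0, with 25.8 in replicate 1, 11.5 in replicate 2 and no record in replicate 3. Each of the 5 had a record in at least 2 of the 3 own ranked lists, and Cpr67Fa1 and Cpr73D had one in all 3. Their ranks in the ranked counterpart lay between 6146 and 11642 of 101916 records.

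Few members had TSS windows made mostly of repeated sequence. Here a single window per gene was used, 500 bp either side of the 5'-most TSS. The windows of 2 members, Cpr65Ax1 (76.4%) and Cpr65Ax2 (72.1%), consisted for more than 50% of 31-base words that occur more than once on the 6 chromosome arms. That is 2.11% of members, against 2.29% of all genes. Neither had a record in any own ranked list. Smaller shares stood at several members of the TwdlM to TwdlD cluster, among them TwdlK and TwdlL (16.9% each), and at Cpr67Fa1 (8.03%). TwdlK had no record in any own ranked list, while TwdlL and Cpr67Fa1 had records.

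The clusters as wholes were not empty. They covered 257 kb and held 7 summits of the conservative list, or 27.3 per Mb, against 35.7 per Mb over the arms. In the own lists they held 4, 2 and 2 summits in replicates 1, 2 and 3, which is 10.4 ± 4.51 per Mb in clusters and 22.2 ± 2.87 per Mb over the arms (SD, n = 3). The 7 summits lay in 4 clusters, and 11 clusters held none. Of the 7 summits, 4 stood in the cluster of Cpr65Ea to Cpr65Ec alone, which is 7.84 kb long. No own list placed a summit inside 12 of the 15 clusters.

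**Figure D3:**
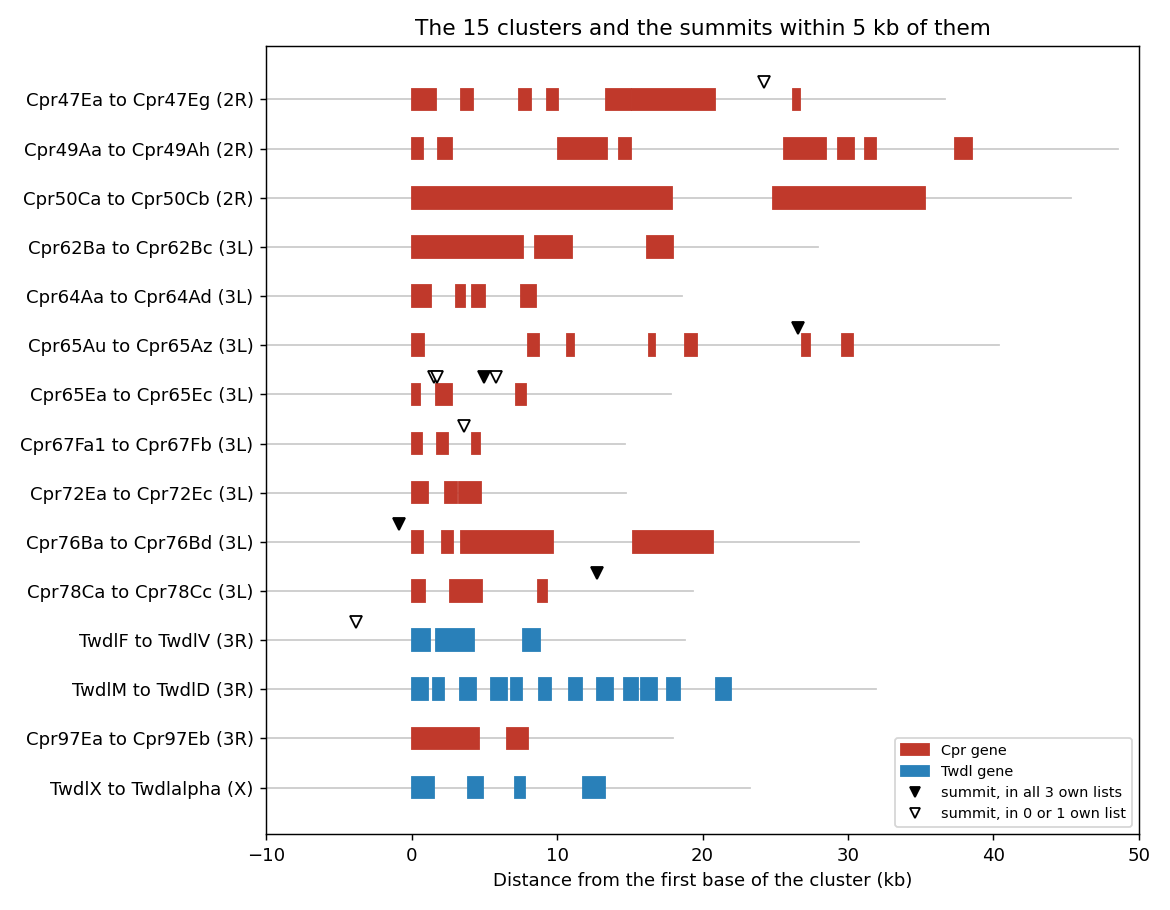
The 15 clusters drawn to scale by distance from their first base in kb, with Cpr genes and Twdl genes as boxes and summits of the conservative list, inside or up to 5 kb outside, as triangles. Filled triangles mark the 4 summits that all 3 own lists held, 2 inside clusters and 2 beside them.

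Of the 7 summits, 2 were also in the own list of every replicate, counted where an own-list summit lay within 250 bp. The first stood between Cpr65Eb and Cpr65Ec (3L, summit 7090981), 2194 bp upstream of the TSS of Cpr65Eb and 2223 bp from that of Cpr65Ec, with a signal of 181 and rank 1317. Its own-list signals were 59.9, 52.0 and 68.8 in replicates 1, 2 and 3. The second stood in the Cpr65A cluster (summit 6157815, signal 171, rank 1433), 815 bp from the TSS of Cpr65Ay on its downstream side. It lay 438 bp from the TSS of CG13297, which was not a member. Its own-list signals were 69.4, 56.6 and 37.0. Sequence within 100 bp of 4 summits beside member genes is given here to show what the sites next to the genes look like, in the plus strand of dm6 and RefSeq's copy of that assembly, with the word AAATAT and its reverse complement ATATTT in capitals.
Between Cpr65Eb and Cpr65Ec, chr3L:7090881-7091081: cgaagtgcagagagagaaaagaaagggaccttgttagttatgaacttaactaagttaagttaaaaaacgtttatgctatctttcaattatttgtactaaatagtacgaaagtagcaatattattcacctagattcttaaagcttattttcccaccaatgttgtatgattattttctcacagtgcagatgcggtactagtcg
Beside Cpr65Ay, chr3L:6157715-6157915: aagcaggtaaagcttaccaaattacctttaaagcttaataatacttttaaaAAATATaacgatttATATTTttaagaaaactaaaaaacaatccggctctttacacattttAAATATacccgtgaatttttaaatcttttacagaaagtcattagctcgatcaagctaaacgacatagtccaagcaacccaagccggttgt
Beside Cpr67Fb, chr3L:10893468-10893668: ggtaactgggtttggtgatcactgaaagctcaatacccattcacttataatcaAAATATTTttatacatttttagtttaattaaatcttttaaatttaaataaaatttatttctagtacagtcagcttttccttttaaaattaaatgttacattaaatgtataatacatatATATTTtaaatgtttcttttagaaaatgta
Beside Cpr76Ba, chr3L:19516613-19516813: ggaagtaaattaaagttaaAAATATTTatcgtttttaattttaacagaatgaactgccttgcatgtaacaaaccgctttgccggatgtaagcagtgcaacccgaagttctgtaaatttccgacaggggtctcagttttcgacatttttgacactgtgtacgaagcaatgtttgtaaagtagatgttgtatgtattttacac
The word stood in 3 of these 4 windows, and in 6 of the 10 windows inside or beside clusters (60.0%), against 50.5% of all windows of the same length around main summits. The median GC content was 34.1% in the 10 windows and 34.8% in all.

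The other summits inside clusters were weaker. The summit beside Cpr67Fb (10893568, 605 bp upstream, signal 95.4) was in the own list of replicate 1. Those beside Cpr65Ea (7087515, 907 bp upstream, signal 86.6) and beside Cpr65Ec (7091838, 1366 bp upstream, signal 55.7) were in no own list. A record of signal 10 in the 3' UTR of Cpr65Eb (7087716) lay within 250 bp of the stronger summit beside Cpr65Ea. In the Cpr47E cluster a summit (2R, 11276005, signal 68.0) stood 719 bp from the TSS of TpnC47D, a troponin C gene of muscle, and 2440 bp from that of Cpr47Eg. It was in no own list. Of the 7 summits inside clusters, the 2 that every own list held lay above the median signal of the conservative list.

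The cluster with the most members was that of TwdlM to TwdlD (3R, 26619118 to 26641054, 21.9 kb, 12 Twdl genes and 0 other protein-coding genes). It held no summit in the conservative list or in any own list. It lay in a stretch of 87.7 kb without a summit. Neighbouring summits of the list were a median of 9.11 kb apart. A stretch that holds an empty cluster must be longer than that cluster, so these values are not like measures. The same holds for the other stretches given here. TwdlM was 35698 bp and TwdlD 14791 bp from the nearest summit. In ranked lists 6 of its 12 members had a record in the counterpart of the conservative list, with signals between 15.5 and 23.9, and 4 had none in any ranked list. The Cpr49A cluster (2R, 12376626 to 12415170, 8 members from Cpr49Aa to Cpr49Ah) lay in a stretch of 101 kb without a summit. The Cpr50C cluster lay in one of 202 kb, and neither of its 2 members had a record in any ranked list. The Cpr47E cluster (2R, 11251751 to 11278445) ran from Cpr47Ea to Cpr47Eg and the Cpr65A cluster (3L, 6131242 to 6161589) from Cpr65Au to Cpr65Az, with 7 members each and 1 summit each. The next 3 clusters by size had 4 members each and held no summit. The distance of their members to the nearest summit ran from 12100 to 18301 bp in the cluster of Cpr64Aa to Cpr64Ad, from 1619 to 16030 bp in that of Cpr76Ba to Cpr76Bd, and from 7724 to 12970 bp in that of TwdlX to Twdlalpha. The Cpr65A cluster also contains 10 Lcp and Acp genes, which encode larval and adult cuticle proteins, and none of them had a summit at a TSS.

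Within 5 kb outside the clusters stood 3 summits of the conservative list. The strongest of all summits near the members (3L, 21304570, signal 774, rank 76) lay 3399 bp outside the Cpr78C cluster. It stood in an intron of CG11309, 88 bp downstream of a TSS of that gene, and 127 bp from a TSS of its divergent neighbour CG7632. Its own-list signals were 314, 220 and 232. A summit 839 bp outside the Cpr76B cluster (19516713, signal 178, rank 1362) had Cpr76Ba as its nearest gene, 1619 bp from the TSS on its downstream side, and was in every own list with signals of 69.9, 64.3 and 46.7. The third lay 3789 bp outside the cluster of TwdlF (3R, 4243231, signal 91.2), 85 bp from the TSS of CG34305 and 375 bp from that of the pseudogene TwdlU, and was in the own list of replicate 1. Among genes that were not members, 1 of 25 inside clusters (4%) had a summit at a TSS, CG13297, in every list. The symbol rule leaves out cuticle protein genes with other names, and these 25 include such genes, among them the Lcp and Acp genes. Of nonmember genes with some of their body within 5 kb of an edge, 5 of 41 (12.2%) had one, against 16.2% of all genes. They were CG9062, CG7632, CG11309, CG34305 and goe. In the own lists the count was 6 of 41 (14.6%) in replicate 1 and 2 of 41 (4.88%) in each of replicates 2 and 3. The conservative-list summits at CG9062 and goe themselves lay more than 5 kb outside the clusters, and the body of goe spans the TwdlX cluster.

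Beside single members, Cpr73D (3L, 16939100 to 16957689) had summits at 16956975 (signal 162) and 16956414 (signal 56.3). Both lay in introns of Cpr73D and of the overlapping gene Ogdh, which encodes a subunit of the 2-oxoglutarate dehydrogenase complex. The stronger was nearer to a TSS of Ogdh (464 bp) than to that of Cpr73D (714 bp). It was in the own lists of replicates 1 and 3, and its signals were 88.0, 43.4 and 49.2 in replicates 1, 2 and 3. A summit 1899 bp upstream of Cpr100A (3R, 30865622, signal 97.8) was in the own list of replicate 2. Cpr65Ec, Cpr76Ba, Cpr100A, TwdlK, TwdlL, TwdlU, Ogdh and TpnC47D were named after their values were seen.

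**Figure D4:**
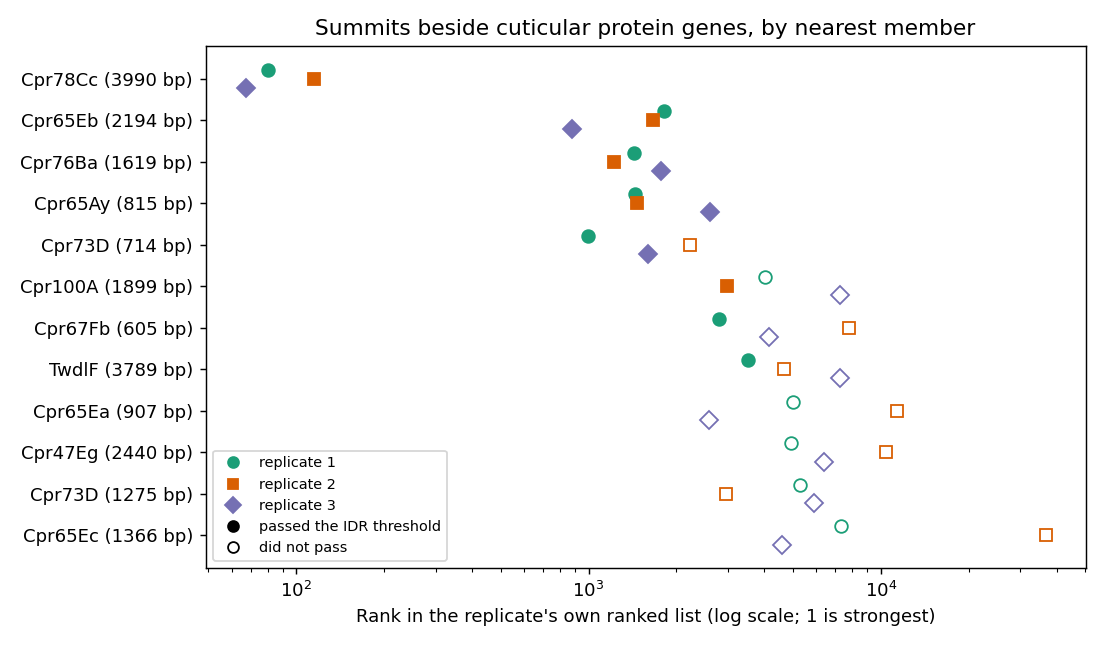
Rank of each of 12 summits beside cuticular protein genes in the ranked list of each replicate (log scale, 1 is the strongest), labelled by the nearest member and its distance, with filled symbols where the record passed the authors' IDR threshold in that replicate. The summits beside Cpr78Cc, Cpr65Eb, Cpr76Ba and Cpr65Ay passed in all 3 replicates. The record in the 3' UTR of Cpr65Eb is left out, since its nearest replicate records are those of the summit beside Cpr65Ea.

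The promoters of the members differed from other promoters in sequence. The base stretch from 250 bases upstream to 50 bases downstream of a single TSS per gene was searched. Both strands were searched except for the initiator word TCAGT, which was searched on the strand of the gene. TATAAA, the core of the TATA box that is bound by the TATA-binding protein, was found in 72.6% of members and 45.8% of all genes. Counted on the strand of the gene at 45 to 16 bases upstream, where a TATA box stands, it was found in 54 of 95 members (56.8%) and in 8.75% of all genes. It was present there in 39 of 70 Cpr genes (55.7%) and 15 of 25 Twdl genes (60.0%). Among all genes with a summit at a TSS the share was 3.37%. TATCGATA, the word recognised by DREF, was found in 1.05% of members and 9.36% of all genes. AAATAT was found in 32.6% of members and 53.7% of all genes. TCAGT, counted anywhere in the stretch and not at the TSS alone, was found in 40.0% of members and 36.1% of all genes. GAGAG, the word bound by GAGA factor, was found in 31.6% of members and 29.7% of all genes. Matches of different words may overlap. The median GC content was 45% for members and 38% for all genes. The sequence upstream of the TSS of the 3 members with a thresholded summit within 500 bp in any list is given 5' to 3' on the strand of the gene, ending at the base before the TSS, with TATAAA in capitals.
Cpr65Av, chr3L:6139975-6140224, minus strand: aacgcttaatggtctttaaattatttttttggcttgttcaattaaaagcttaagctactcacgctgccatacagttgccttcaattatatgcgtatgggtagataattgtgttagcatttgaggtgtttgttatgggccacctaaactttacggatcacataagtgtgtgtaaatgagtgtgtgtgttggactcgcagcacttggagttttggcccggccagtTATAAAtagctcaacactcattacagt
Cpr65Ea, chr3L:7086609-7086858, minus strand: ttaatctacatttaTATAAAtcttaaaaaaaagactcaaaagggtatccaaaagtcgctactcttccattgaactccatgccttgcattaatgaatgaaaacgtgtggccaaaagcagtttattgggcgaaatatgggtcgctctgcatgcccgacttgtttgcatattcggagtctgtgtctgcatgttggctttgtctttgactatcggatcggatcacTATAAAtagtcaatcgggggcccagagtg
Cpr67Fb, chr3L:10893923-10894172, plus strand: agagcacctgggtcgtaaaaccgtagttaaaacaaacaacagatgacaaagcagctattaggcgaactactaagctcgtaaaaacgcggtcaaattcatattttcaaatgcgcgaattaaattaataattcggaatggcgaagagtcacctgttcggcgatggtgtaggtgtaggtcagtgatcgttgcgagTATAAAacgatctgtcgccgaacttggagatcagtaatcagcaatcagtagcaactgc
In Cpr65Av the word began 27 bases upstream of the TSS, in Cpr65Ea 29 and 236 bases upstream, and in Cpr67Fb 58 bases upstream, outside the counted stretch. A match is a description of these letters, and nothing about binding follows from it.

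Other features of promoters were set beside the members' count. Divergent promoters, with another TSS within 1000 bp pointing away, were found for 5 of 95 members (5.26%) and 36.2% of all genes. Among all genes a summit at a TSS was found for 25.2% of divergent and 11.1% of other promoters, and for 6.23% of promoters with TATAAA at 45 to 16 bases upstream and 17.1% of those without. Of the members, 51 had TATAAA there and were not divergent. All 938 protein-coding genes of that kind had a summit in 46 cases (4.90%). Members had a mean of 1.09 TSSs per gene, against 1.41 for all genes. TATAAA was sought at a single TSS per gene, while a summit could lie at any of its TSSs. The part of promoter type in the members' count was not tested.

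Other genes of the cuticle were listed in 4 groups. Of 43 other structural genes, among them the Lcp, Ccp84A, obst and Vajk genes, 0 had a summit at a TSS in the conservative list and 0 in each own list. Their median distance was 16764 bp. Of 38 genes listed for chitin synthesis and assembly, 8 had one (21.1%), against 16.2% of all genes. That group also holds chitinase, chitinase-like and hexosaminidase genes. The 4 strongest were Hexo2, a hexosaminidase gene (signal 295), the chitinase genes Cht7 (238) and Cht11 (215), and Idgf2, a chitinase-like gene (184), each in all 3 own lists. The other 4, Hexo1, mmy, Idgf6 and nst, were in no own list. Of the 8, all but mmy and nst were hexosaminidase, chitinase or chitinase-like genes. Of 19 genes of tanning, which hardens and colours the cuticle, 2 had one (10.5%, against 16.2% of all genes): PPO3, a prophenoloxidase gene (125), and Pu, the gene for GTP cyclohydrolase (112). The count of tanning genes was 1 in the list without replicate 1 and 3 in the pooled list. Of 32 regulators, 13 had one (40.6%), led by the ecdysone-induced receptor gene Eip75B (418), the POU factor gene vvl (359), the tracheal factor gene trh (319) and the nuclear receptor gene Hr78 (271). The regulators had a mean of 2.66 TSSs per gene, which gives more windows per gene than the 1.09 of the members. In the own lists the share was 0% ± 0 for other structural genes, 11.4% ± 1.52 for chitin genes, 5.26% ± 5.26 for tanning genes and 26.0% ± 4.77 for regulators (SD, n = 3), against 11.1% ± 1.21 for all genes.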

How the data were processed

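ChIP-seq of 3 biological replicates of CG11695-eGFP embryos was given as IDR peak lists on dm6, per the labels. Fragments of 200 to 800 bp were selected after sonication, per the labels. No source used here names the aligner or the caller. In each list the authors deposited a score per peak (lowest 830 in the thresholded lists), a signal value of unstated scale and, in the ranked lists, −log10 of the global IDR. Signal was used only within a list. The conservative list was matched to replicates by identical records: 74.0% of the compared records stood in the ranked list of replicate 1, 67.9% in that of replicate 3 and 0 in that of replicate 2. The series lists' peaks and signals come from pooled libraries, and the pair lists differ in which 2 replicates were compared by IDR. A list called without replicate 3 or 1 thus puts replicate 2 in that replicate's place.

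Summits were set against TSSs of Ensembl BDGP6.54 (release 115) with Python 3.11.15, pandas 2.3.3 and numpy 2.4.6, and figures were drawn with matplotlib 3.10.9. Sequences were read from RefSeq's copy of dm6. The distance code was tested on simulated data. Of the gene lists, 6 symbols were not found. The members and gene lists were chosen with earlier results of these data known. Members named were those with a thresholded summit within 1000 bp in any list, the 5 with the highest ranked signal and the ends of the 5 largest clusters. Other genes named were nonmembers inside or beside clusters with a summit at a TSS, up to 4 genes per other list by signal, and CG11695. No test was run: there was 1 group, and a set test over members was not used. Alternatives tried were other lists, IDR, windows, cluster gaps, edges and merged or added records.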

Additional observations from a re-analysis of the deposited data

How the results depend on the processing

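Of 52 alternative settings, 38 kept a count within 1.5 times or a median distance within 1795 bp, the SD over the own lists, and 14 did not. The 38 include the own-list median distances with 1 replicate left out. Those could not move by that SD, which comes from the same lists, so they say nothing about stability. The 38 also include settings of the TSS count that could only return its 0. They were a window of 250 bp, a global IDR of 0.001, merged summits and the 5'-most TSS alone. Among the settings that could raise that count, only added-back records left it at 0. With a window of 1000 bp the count of members with a summit at a TSS was 4, and with 2000 bp it was 9. With any base of the peak in the window it was 1, and with the pooled list it was 1. The conservative list compared replicates 1 and 3, so the other pair lists exchange replicate 3 or 1 for replicate 2. Without replicate 3 or without replicate 1 the count was 1 (Cpr67Fb and Cpr65Av). Over the 2 other pair lists summits inside clusters were 3 to 5, against 7 in the conservative list, and 2 at a global IDR of 0.001, which left 2651 records. Summits at cluster edges were 2 to 3 over those pair lists, 1 with an edge of 2 kb and 8 with 10 kb. The median distance was 15914 to 17662 bp over those pair lists, 11277 bp with the pooled list and 21291 bp at a global IDR of 0.001. Over the own lists, leaving each replicate out in turn gave 0 to 0.500 members with a summit at a TSS, 2 to 3 summits inside clusters, 2 to 3 at edges and a median distance of 19626 to 21210 bp. The own-list count above 0 rests on Cpr65Ea in replicate 1 alone. No paired analysis was possible because there was 1 group. Depth is unknown, so weak sites below the IDR threshold are limited by it.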
